A study of Mus musculus with 6 samples.

Results

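The Rab GTPases outside the melanosome set are the protein-coding mouse genes whose symbol is Rab followed by a number and at most a letter and a digit, without Rab27a, Rab32 and Rab38. By this rule 56 of the 34981 genes in the deposited table are members, and the rule itself uses gene symbols and no measured value. They were measured by RNA sequencing in spheroids of B16F10, an established mouse melanoma cell line, grown in Matrigel, an extract of basement membrane proteins. Each culture began from 500 cells in 50 µl of Matrigel at 7 mg/ml, and 3 cultures received the growth factor BMP2 at 100 ng/ml for 10 days, while 3 received PBS, the vehicle, for the same time. The control cultures are titled as untreated in the labels, whereas the treatment protocol names PBS. The experiment was run 3 times, and a batch consists of 1 BMP2 and 1 PBS culture. All 6 cultures are of the same line, with no other allele or agent named.

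Rab proteins are small GTPases of membrane traffic. In the GTP-bound form each sits on its own set of membranes through a prenyl tail and recruits effectors, such as motors, tethers and kinases, that move, dock and fuse vesicles. Exchange factors (GEFs) load GTP, GTPase-activating proteins (GAPs) end the active state, and GDI proteins carry the inactive form through the cytosol. In pigment cells Rab27a, Rab32 and Rab38 build or move melanosomes. The other Rabs are known mainly from traffic that all cells use or from secretion and ciliary routes of particular cell types. This division is not strict, as Rab17, for example, has also been linked to melanosome release. RNA levels do not report how much of a Rab is in the GTP-bound form.

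None of the 48 members that could be tested passed the threshold between BMP2 and PBS, and the median fold change of the members lay near no difference. The nearest to the threshold was Rab43, a Rab of Golgi traffic, which had a higher level with BMP2 in each of the 3 batches. Its reads are shared with an overlapping gene model, and its call depended on the analysis chosen. The most abundant member per length was Rab7, the central Rab of late endosomes and lysosomes, in every library.

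The table resolves genes and carries no reads over promoters. What the members share in sequence was therefore described in RefSeq promoters of build GRCm38.p6, which run from 250 bases before to 50 bases after an annotated start. Entries were found for 46 of the 56 members, 57 entries in all. The letters GTCACGTGAC, a palindrome that reads the same on both strands and holds the E-box CACGTG within it, occurred in 3 of these 57 promoters (5.26%), against 107 of all 32851 promoters (0.326%). These motifs were chosen after values of the genes were known, and the match is a description of letters. The promoters that carry it belong to Rab21, which acts in integrin endocytosis, Rab24, which acts in autophagy, and Rab5a, which acts in early endosome fusion. They are shown from 110 bases before to 10 bases after the start, with the palindrome in capitals. The window of Rab21 is at chr10:115315582-115315701 on the minus strand, that of Rab24 at chr13:55321971-55322090 on the minus strand, and that of Rab5a at chr17:53479124-53479243 on the plus strand.
Rab21: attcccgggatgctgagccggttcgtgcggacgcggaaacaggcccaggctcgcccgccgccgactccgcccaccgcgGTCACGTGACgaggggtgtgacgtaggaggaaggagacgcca
Rab24: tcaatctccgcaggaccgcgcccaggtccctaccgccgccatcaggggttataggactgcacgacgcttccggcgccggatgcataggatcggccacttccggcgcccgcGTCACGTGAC
Rab5a: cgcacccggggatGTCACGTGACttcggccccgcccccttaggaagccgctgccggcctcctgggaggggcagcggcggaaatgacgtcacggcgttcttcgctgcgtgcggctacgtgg

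The 6-letter core CACGTG alone, counted on both strands and including the promoters above, occurred in 5 of 57 member promoters (8.77%) and in 7.15% of all. Another E-box, CATGTG, was found in 6 of 57 (10.5%, both strands) and in 14.2% of all promoters. GGCGCC, a GC-rich element described for BMP-activated SMADs, was present in 5 (8.77%) and in 11.9% of all. The genes with the palindrome had log2 fold changes of 0.34 (SE 0.14) for Rab21, 0.21 (SE 0.14) for Rab24 and -0.03 (SE 0.12) for Rab5a. None of them passed the test, and their values differ from each other in direction.

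Libraries held between 27821900 and 36856500 estimated counts, and 3 counts correspond to between 0.0749 and 0.103 CPM. CPM here is the count scaled to library size with edgeR's trimmed mean of M values. Members took between 0.348% and 0.460% of the counts of a library. The PBS library of batch 1 stood apart from the others, at -60.3 on a first principal component that held 55.5% of the variance, with the other 5 between -14.7 and 42.8. The 3 libraries of a group differed from each other by more than sampling noise, and the labels name separate batches. The BMP target Id2, an inhibitor of helix-loop-helix factors, rose with a log2 fold change of 2.80 (adjusted p = 0.0152, edgeR), while Id1, Id3 and Smad6 had 3.35, 3.88 and 3.47 (adjusted p = 0.131, 0.117 and 0.0665). All 7 melanocyte markers were present, with summed levels of 28870 to 39071 CPM with BMP2 and 23669 to 26310 CPM with PBS. Summed levels of 6 leukocyte markers were 2.98, 2.36 and 0.974 CPM in the BMP2 libraries of batches 1, 2 and 3 and 0.976, 0.899 and 0.359 CPM in the PBS libraries, higher with BMP2 in each batch, with Adgre1 at 0 in all 6. Between 78.1% and 96.3% of this sum came from Lyz2, a lysozyme gene of myeloid cells, which had a log2 fold change of 1.63 (SE 0.38, adjusted p = 0.131, edgeR). The 5 endothelial markers summed to 0.724 to 2.16 CPM with BMP2 and 1.05 to 1.76 CPM with PBS, with Cdh5 and Tek at 0, and the 6 fibroblast markers to 3.12 to 5.31 CPM and 4.38 to 8.52 CPM. Of 4 keratinocyte markers 2 were listed, at 0 with BMP2 and at most 0.0599 CPM with PBS. The part of these markers in the Rab values was not tested.

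The summed level of the 56 members was 4169 ± 169 CPM with BMP2 and 4027 ± 30.9 CPM with PBS (mean ± SD, n = 3 libraries each). Libraries of batches 1, 2 and 3 had sums of 3977, 4294 and 4236 CPM with BMP2 and 3992, 4035 and 4052 CPM with PBS, so the groups overlapped. In these bulk samples, more cells with a transcript and more transcript per cell cannot be told apart. Rab7 alone gave between 18.3% and 21% of the sum in a library.

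The share of Rab7 above, the share of Rab43 in summed counts and the counts of overlapping genes below are not scaled for length. Levels of different members were ranked as CPM per kilobase of the longest annotated coding transcript, as a mean over the 6 libraries. On this scale Rab7 stood at 379, Rab5c, an early endosome Rab, at 148, Rab1a, which acts between the endoplasmic reticulum and the Golgi, at 120, Rab5b, another early endosome Rab, at 103, and Rab6a, of traffic through the Golgi, at 75.6. These 5 covered late endosomes, early endosomes and the early secretory route. The highest members of the remaining roles were Rab14 for endosomal recycling at 64.9, Rab10 for exocytic delivery at 46.8, Rab28 for the cilium at 23.3, Rab3a for regulated secretion at 21.1 and Rab40c, which carries a SOCS box, at 6.62. In all, 32 members were at or above 10 CPM per kb, 8 lay between 1 and 10, and 16 were below 1. The 16 at the low end included Rab25, an epithelial recycling Rab, Rab3c and Rab26 of neuronal and secretory cells, and Rab27b, the paralogue of the melanosomal Rab27a.

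**Figure D1:**
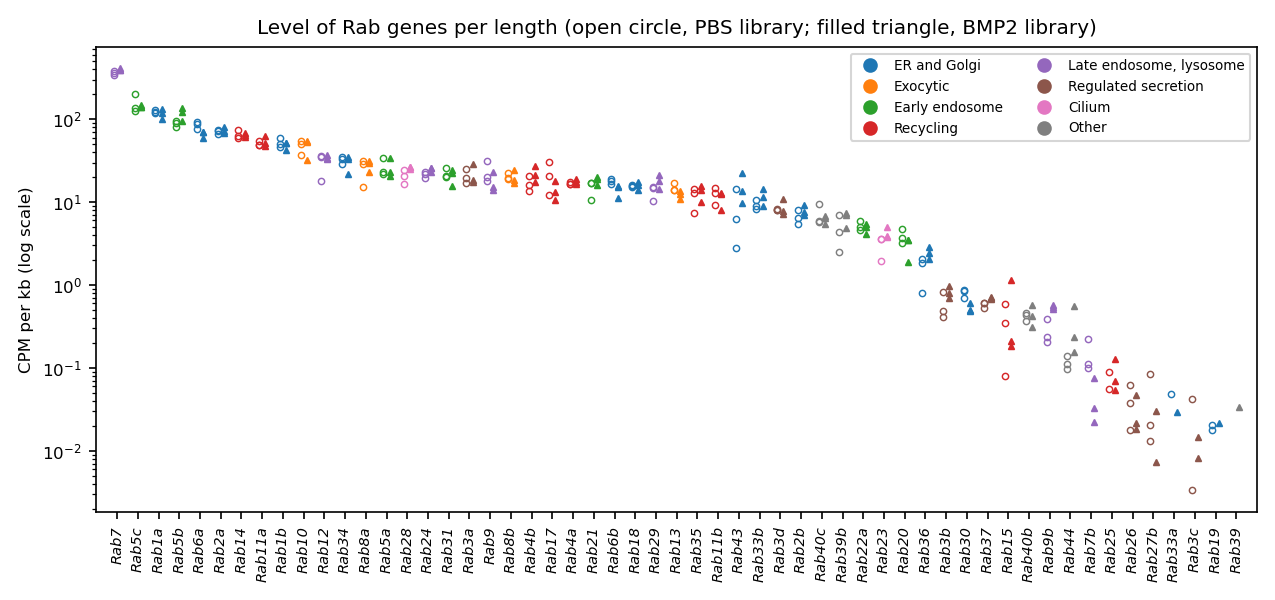
Level of each Rab gene in each library on a log axis, in CPM per kilobase of the longest annotated coding transcript; open circles are PBS libraries, filled triangles BMP2 libraries, and colours give the role. A library at 0 has no point on the log axis, and Rab42, at 0 in all 6, is not drawn. Rab7 is highest at a mean of 379, and 16 genes lie below 1.

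Filtering on low counts left 48 of the 56 members for testing. The 8 others were Rab25, Rab3c, Rab27b, Rab19, Rab33a, Rab39, Rab26 and Rab42. Rab42 had 0 counts in all 6 libraries, which allows up to 3 counts, or 0.0749 to 0.103 CPM in a library. The filter uses the group in which a gene is high, so counts over the 48 are not counts over all members. Of the 48, 0 rose and 0 fell with BMP2 in edgeR's quasi-likelihood test with batch as a block and Benjamini-Hochberg adjustment over 12929 genes, against 95 of all 12929 genes (0.735%). An unadjusted p under 0.05 was reached by 12 of 48, with 7 higher and 5 lower, against 17% of all genes (8.12% higher and 8.89% lower). Without the block, 0 members passed the adjusted and 4 the unadjusted threshold, against 0.0464% and 5.38% of all genes. DESeq2's Wald test with the block called 1 member by adjusted p, against 4.96% of the genes it gave one for, and 10 had an unadjusted p under 0.05, against 16.7% of the same genes.

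The median log2 fold change of the 48, BMP2 minus PBS, was 0.06, and that of all tested genes was 0.01. The interquartile range of the members lay between -0.10 and 0.30, and that of all genes between -0.23 and 0.25. Fold changes ran from -1.79 for Rab7b to 1.27 for Rab44, with 28 above 0 and 20 below. A fold over 2 in either direction was estimated for 4 members, against 5.42% of all genes, and these were Rab43, Rab7b, Rab9b and Rab44. For 34 of 48 members the 95% interval of the fold change lay within 2-fold either way, against 69.4% of all genes, so larger differences lie outside the interval for those 34 and cannot be set aside for the other 14.

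By batch, 14 members were higher with BMP2 in all 3 batches (22.7% of all genes) and 8 were lower in all 3 (21.1% of all genes). Every BMP2 library lay above every PBS library for 8 members (6.42% of all genes) and below for 5 (5.72% of all genes). The former were Rab5b, Rab7, Rab9b, Rab23, Rab24, Rab28, Rab37 and Rab44, and the latter Rab6a, Rab6b, Rab7b, Rab13 and Rab30. The median log2 difference of the members was 0.06 in batch 1, 0.11 in batch 2 and -0.02 in batch 3.

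**Figure D2:**
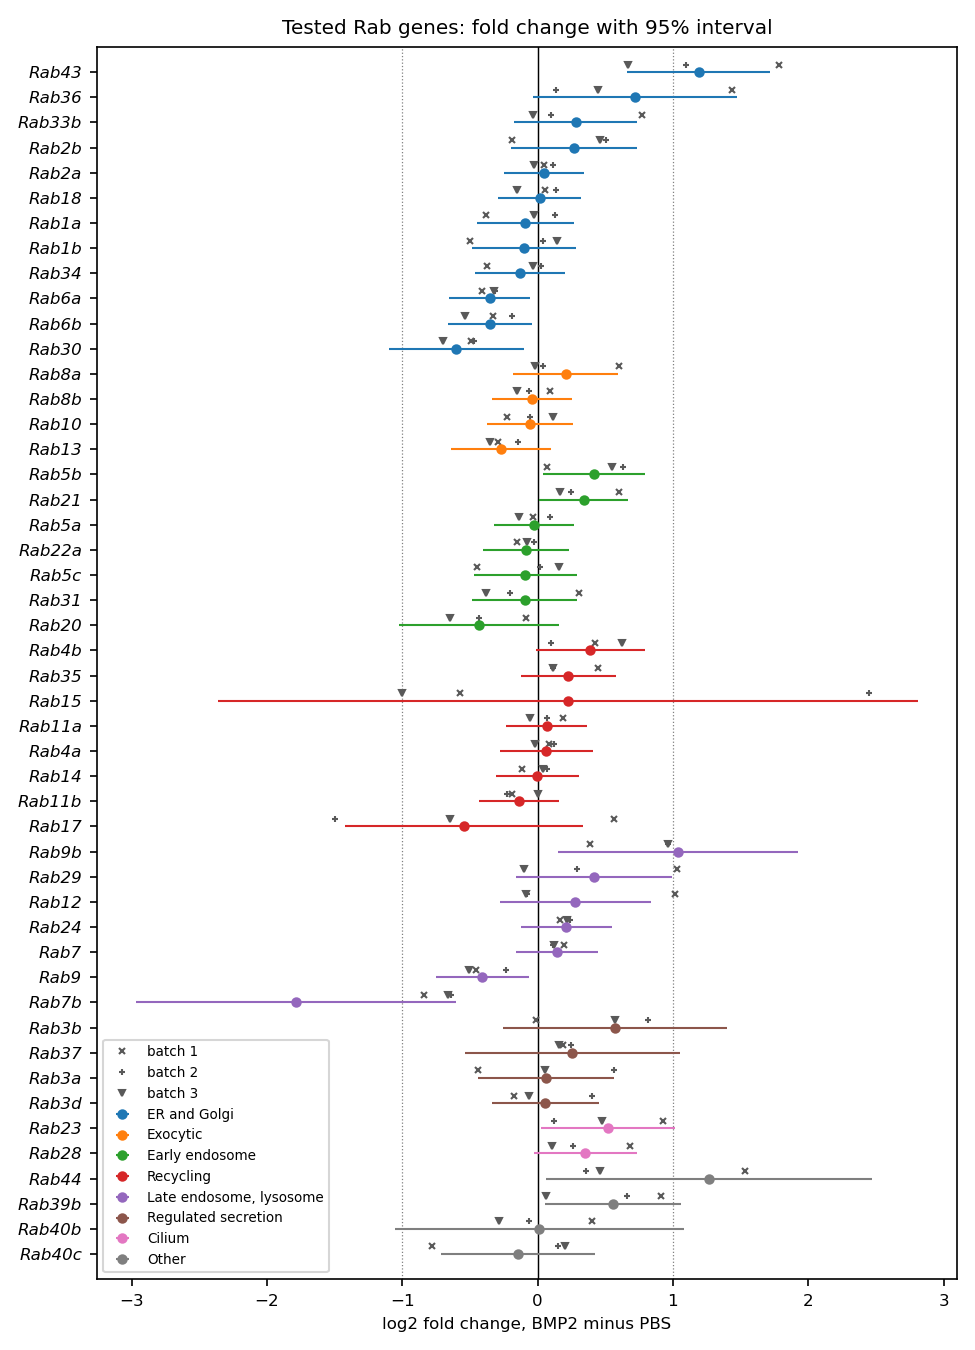
Log2 fold change, BMP2 minus PBS, of the 48 tested Rab genes, grouped by role; circles and bars are the fitted value and its 95% interval, and crosses, plus signs and triangles are the log2 differences within batches 1, 2 and 3, computed after adding 0.5 CPM. Most intervals cross 0, 34 of 48 lie within 2-fold either way (dotted lines), and Rab43 and Rab7b are farthest from 0 relative to their error.

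Of the 14 Rabs of the endoplasmic reticulum and Golgi, 12 were tested, with a median log2 fold change of -0.04, and none passed. Rab43 (chr6:87788853-87812164, minus strand) had 45.5, 62.9 and 104 CPM in the BMP2 libraries of batches 1, 2 and 3, and 12.9, 29.1 and 65.4 CPM in the PBS libraries. The BMP2 library exceeded its PBS partner in each batch, but the groups overlapped, because the PBS library of batch 3 was above the BMP2 libraries of batches 1 and 2. Means were 70.8 ± 30.1 and 35.8 ± 26.9 CPM (SD, n = 3), and the log2 fold change was 1.19 (SE 0.22, adjusted p = 0.0821, edgeR with the block). Within batches the log2 differences were 1.78, 1.10 and 0.67. Without the block the adjusted p was 0.883 (edgeR), and DESeq2's Wald test with the block gave 1.19 with an adjusted p of 2.81e-05. Leaving out batch 1 gave 0.88 (adjusted p = 0.0240, edgeR), leaving out batch 2 gave 1.24 (0.232), and leaving out batch 3 gave 1.46 (0.00151). In fits without the block that left out 1 library, Rab43 ran from 0.58 without the PBS library of batch 1 to 1.76 without the PBS library of batch 3. With no filter on low counts the value was 1.20 (adjusted p = 0.00182, edgeR). Rab43 is therefore on different sides of the threshold under different settings.

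The reads of Rab43 are not its own alone. Of its 31-base words, 74.8% also occur in Gm45140, an annotated protein-coding gene model on the same strand (chr6:87788861-87835795) that spans from the splicing gene Isy1 to Rab43. Gm45140 had 12.2, 17.8 and 9.79 CPM in the BMP2 libraries and 17.1, 30.2 and 21.4 CPM in the PBS libraries. In each batch it was lower with BMP2, the direction opposite to Rab43, with a log2 fold change of -0.79 (SE 0.18, adjusted p = 0.131, edgeR). The share of the summed counts assigned to Rab43 was 78.9%, 78.0% and 91.4% with BMP2 and 42.9%, 49.1% and 75.4% with PBS. The sum of both genes was 57.7, 80.7 and 114 CPM with BMP2 and 30.0, 59.3 and 86.8 CPM with PBS, again higher with BMP2 in each batch. Its log2 fold change was 0.59 (SE 0.15, adjusted p = 0.158, edgeR), with 0.93, 0.44 and 0.39 within batches, and DESeq2's Wald test gave an adjusted p of 0.0405. The sum was chosen after the values were seen. Isy1 itself had 59.5, 52.7 and 56.3 CPM with BMP2 and 70.6, 43.4 and 44.1 CPM with PBS, and the groups overlapped. The part of the division of reads between Rab43 and Gm45140 in these values was not tested beyond this sum.

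**Figure D3:**
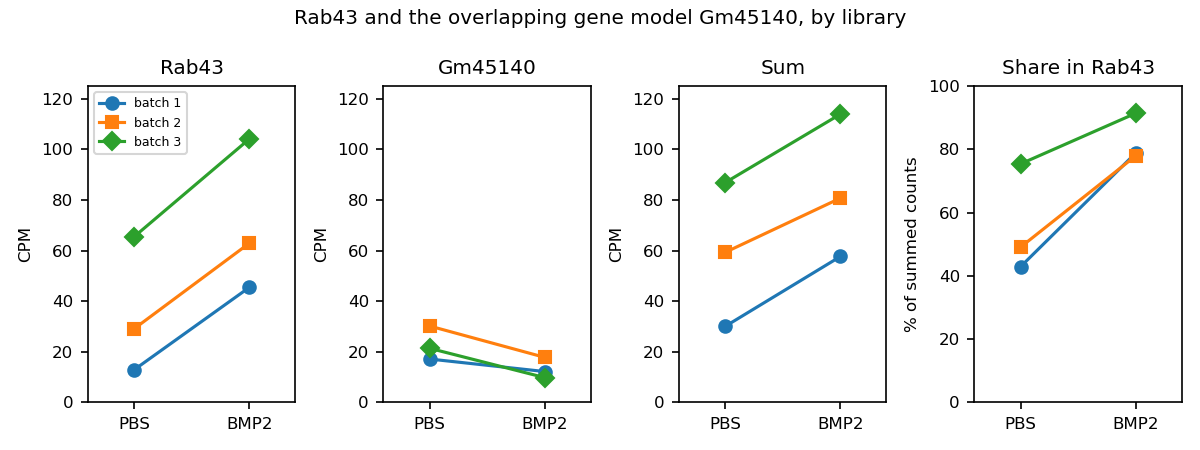
Rab43, the overlapping gene model Gm45140, their sum (all in CPM) and the percentage of the summed counts assigned to Rab43, in each PBS and BMP2 library; lines join the libraries of a batch. Rab43 and the sum are higher with BMP2 in all 3 batches, Gm45140 is lower, and the share in Rab43 is higher.

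Rab6a and Rab6b, paralogues that act in traffic between endosomes, the Golgi and the endoplasmic reticulum, had similar estimates. Rab6a had 223, 224 and 193 CPM with BMP2 and 297, 279 and 242 CPM with PBS, and every BMP2 library was below every PBS library. Its log2 fold change was -0.35 (SE 0.13, adjusted p = 0.247, edgeR), with -0.41, -0.32 and -0.33 within batches, and -0.23 when scaled by library totals. Rab6b, which is best known from neurons, had 75.9, 78.9 and 56.4 CPM with BMP2 and 95.5, 90.0 and 82.0 CPM with PBS, again without overlap, and a log2 fold change of -0.35 (SE 0.13, adjusted p = 0.253, edgeR), or -0.23 by library totals. The split between the pair was the same to within its spread. Rab6a held 82.6% ± 1.39 of their summed CPM per kb with BMP2 and 82.6% ± 0.44 with PBS (SD, n = 3). The span of Rab6a overlaps that of Mrpl48 on the other strand, and no strand setting is stated in the sources used here. These are whole gene spans with introns, and overlap of exons was not tested. Whether reads of such pairs can be told apart is therefore not known. The same limit holds for Rab2b with Tox4, Rab3a with Mpv17l2 and Rab15 with Fntb, among others.

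Rab30, another Golgi Rab, had 5.72, 4.61 and 4.74 CPM with BMP2 and 8.26, 6.58 and 8.02 CPM with PBS. The groups did not overlap, and the log2 fold change was -0.60 (SE 0.21, adjusted p = 0.241, edgeR). Rab1a, the Rab of the route from the endoplasmic reticulum to the Golgi, had 280, 370 and 338 CPM with BMP2 and 365, 338 and 345 CPM with PBS, with the groups overlapping and a log2 fold change of -0.09 (95% interval -0.45 to 0.27). Of the summed CPM per kb of Rab1a and Rab1b, Rab1a held 70.5% ± 0.985 with BMP2 and 70.3% ± 2.00 with PBS (SD, n = 3). A log2 fold change of 0.05 (95% interval -0.25 to 0.34) was found for Rab2a and 0.01 (-0.29 to 0.32) for Rab18. These intervals of the core secretory Rabs lie within 2-fold either way. The remaining tested Rabs of the role, Rab1b, Rab34, Rab33b, Rab2b and Rab36, had log2 fold changes from -0.13 for Rab34 to 0.72 for Rab36. Rab36, which binds the same effector as Rab34, was spread over 7.91, 6.74 and 9.46 CPM with BMP2 and 2.60, 6.10 and 6.80 CPM with PBS, with overlap and an adjusted p of 0.308 (edgeR).

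Among the 7 early endosome Rabs, all tested, the median log2 fold change was -0.09 and none passed. Rab5b had 304, 391 and 438 CPM with BMP2 and 289, 253 and 299 CPM with PBS. Every BMP2 library was above every PBS library, but in batch 1 the log2 difference was only 0.07, against 0.63 and 0.55 in batches 2 and 3. The fold change over all batches was 0.42 (SE 0.16, adjusted p = 0.265, edgeR). Without batch 1, which holds the PBS library that stood apart, more of all genes passed than in the fit of all batches. Rab5b then had 0.58 (SE 0.10, adjusted p = 0.0302, edgeR). Its paralogue Rab5c had 288, 274 and 276 CPM with BMP2 and 394, 270 and 246 CPM with PBS, with overlap and a log2 fold change of -0.09 (95% interval -0.47 to 0.29), and the sign of this value turned without batch 1. Rab5b made up 41.3% ± 5.95 of the summed CPM per kb of Rab5a, Rab5b and Rab5c with BMP2. With PBS it made up 33.3% ± 5.44 (SD, n = 3), and these shares overlapped. Rab21 had 74.0, 91.6 and 87.3 CPM with BMP2 and 48.6, 77.1 and 77.7 CPM with PBS, the BMP2 library of batch 1 being below the PBS libraries of batches 2 and 3. Its log2 fold change was 0.34 (SE 0.14, adjusted p = 0.283, edgeR), and 0.20 without batch 1. Rab5a, Rab22a and Rab31, which act in early endosome fusion and in sorting from early endosomes, had log2 fold changes between -0.09 and -0.03, and Rab20 had -0.43 (SE 0.25, adjusted p = 0.408, edgeR).

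The late endosome and lysosome Rabs, 7 of 7 tested, had a median log2 fold change of 0.21, and none passed. Rab7 had 835, 848 and 891 CPM with BMP2 and 731, 784 and 820 CPM with PBS. Each BMP2 library was above each PBS library, by a narrow margin, and the log2 fold change was 0.14 (SE 0.13, adjusted p = 0.589, edgeR), or 0.26 by library totals. Its paralogue Rab7b, of transport from late endosomes to the Golgi, was close to the detection floor, with 10, 5 and 4 counts in the BMP2 libraries and 31, 18 and 15 in the PBS libraries. The BMP2 libraries were all below the PBS libraries, and the log2 fold change was -1.79 (SE 0.50, 95% interval -2.97 to -0.61, adjusted p = 0.175, edgeR). Of the 31-base words of Rab7, 16.3% also occur in other genes, chiefly the pseudogene Rab7-ps1, and summing these genes left the log2 fold change of Rab7 at 0.14. At most 0.0662% of the summed CPM per kb of Rab7 and Rab7b came from Rab7b in any library.

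Rab9 and Rab9b, paralogues of which Rab9 returns mannose 6-phosphate receptors to the Golgi, had estimates of opposite sign. Rab9 had 33.0, 22.2 and 20.2 CPM with BMP2 and 45.5, 26.3 and 28.9 CPM with PBS, lower with BMP2 in each batch but with overlapping groups, because the BMP2 library of batch 1 was above the PBS libraries of batches 2 and 3. Its log2 fold change was -0.41 (SE 0.14, adjusted p = 0.247, edgeR). In fits without the block it was -0.14 without the PBS library of batch 1 and -0.66 without the BMP2 library of batch 1. Rab9b had 2.16, 2.28 and 2.05 CPM with BMP2 and 1.53, 0.927 and 0.808 CPM with PBS, with no overlap and a log2 fold change of 1.04 (SE 0.37, adjusted p = 0.248, edgeR). As a share of their summed CPM per kb, Rab9b gave 2.32%, 3.59% and 3.56% with BMP2 and 1.21%, 1.27% and 1.01% with PBS. The share was above in every BMP2 library, although Rab9 stayed by far the larger of the pair. This share was chosen after the values were seen and was given no test of its own.

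Among the other late endosome and lysosome Rabs, the log2 fold change was 0.28 for Rab12 (SE 0.23), 0.21 for Rab24 and 0.42 for Rab29 (SE 0.24), with adjusted p of 0.562, 0.462 and 0.413 (edgeR). Rab12, which is a substrate of the kinase LRRK2, had 37.2 CPM in the PBS library of batch 1 and between 68.8 and 75.7 CPM in the other 5 libraries, so that its batch differences were 1.02, -0.08 and -0.08. Rab29, which can recruit LRRK2, had 26.1, 22.3 and 17.6 CPM with BMP2 and 12.5, 18.2 and 18.8 CPM with PBS, with overlap. Rab24 had 30.3, 27.3 and 30.0 CPM with BMP2 and 27.0, 23.0 and 25.7 CPM with PBS, and the groups did not overlap. On the other strand Rab24 is overlapped by Prelid1, which had 104614 counts over the 6 libraries against 5525 for Rab24.

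The exocytic Rabs Rab8a, Rab8b, Rab10 and Rab13 were all tested, with a median log2 fold change of -0.05 and none past the threshold. Rab10, which delivers vesicles to the plasma membrane, had 112, 185 and 191 CPM with BMP2 and 131, 193 and 176 CPM with PBS. Both groups had their lowest value in batch 1 and overlapped, with a log2 fold change of -0.06 (95% interval -0.37 to 0.26). Rab13, of tight junction traffic, had 19.3, 17.9 and 15.5 CPM with BMP2 and 23.7, 19.9 and 19.9 CPM with PBS, without overlap, and a log2 fold change of -0.27 (SE 0.15, adjusted p = 0.406, edgeR). All 4 exocytic Rabs had intervals within 2-fold either way.

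Of 9 recycling Rabs 8 were tested, with a median of 0.06 and none past the threshold. Rab14, of the route between endosomes and the Golgi, had 211, 189 and 198 CPM with BMP2 and 228, 180 and 193 CPM with PBS. The groups overlapped, and the log2 fold change was 0.00 (95% interval -0.31 to 0.30). Rab11a, the main Rab of the recycling endosome, had a log2 fold change of 0.07 (95% interval -0.23 to 0.37). Rab17, an epithelial Rab that has also been linked to melanosome release, spread widely, with 33.2, 19.4 and 24.1 CPM with BMP2 and 22.3, 55.8 and 38.0 CPM with PBS. It was higher with BMP2 in batch 1 and lower in the other batches, and its log2 fold change was -0.54 (SE 0.37, adjusted p = 0.478, edgeR). With batch 1 left out, more of all genes passed than in the fit of all batches. Rab17 then had -1.10 (SE 0.20, adjusted p = 0.0357, edgeR). Rab15 had 3.62 CPM in the BMP2 library of batch 2 and between 0.253 and 1.86 CPM in the other 5. Its 95% interval, -2.36 to 2.81, was the widest of the members. On the other strand Rab15 is overlapped by Fntb, which had 4792 counts over the 6 libraries against 273 for Rab15. Rab4b shares 62.6% of its 31-base words with other genes, nearly all with Gm21983, which had 42 counts over the 6 libraries against 4668 for Rab4b. Its log2 fold change was 0.39 (SE 0.17, adjusted p = 0.302, edgeR), and those of Rab35, Rab4a and Rab11b were 0.23, 0.06 and -0.14.

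Regulated secretion was represented by 7 Rabs, of which 4 were tested, with a median of 0.16 and none past the threshold. Rab3a, known from synaptic vesicles, had 28.6, 45.4 and 27.1 CPM with BMP2 and 39.0, 30.5 and 26.1 CPM with PBS. The groups overlapped, and the log2 fold change was 0.06 (95% interval -0.44 to 0.56). Rab3b had 0.57 (SE 0.35), Rab3d 0.06 (SE 0.17) and Rab37 0.26 (SE 0.33), with adjusted p of 0.434, 0.887 and 0.709 (edgeR). Rab27b had 34 counts over the 6 libraries and was not tested.

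The cilium Rabs Rab23 and Rab28 both had higher values with BMP2 in each batch, and neither passed. Rab23, an inhibitor of Hedgehog signalling, had 16.3, 17.0 and 21.9 CPM with BMP2 and 8.33, 15.6 and 15.6 CPM with PBS. The groups did not overlap, although the margin between the lowest BMP2 library and the highest PBS library was small, and the log2 fold change was 0.52 (SE 0.21, adjusted p = 0.278, edgeR), or 0.30 without batch 1. Rab28, known from photoreceptors, had 45.2, 42.4 and 44.9 CPM with BMP2 and 28.01, 35.3 and 41.8 CPM with PBS, and a log2 fold change of 0.35 (SE 0.16, adjusted p = 0.320, edgeR), or 0.18 without batch 1. For both genes the PBS library of batch 1 was the lowest of the 6.

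Of the 6 remaining Rabs 4 were tested, and none passed. Rab39b, which is mutated in an X-linked form of intellectual disability, had 16.5, 23.6 and 24.8 CPM with BMP2 and 8.52, 14.8 and 23.7 CPM with PBS. The groups overlapped, the batch differences were 0.91, 0.66 and 0.06, and the log2 fold change was 0.56 (SE 0.21, adjusted p = 0.263, edgeR), or 0.36 without batch 1. Rab44, an unusually large Rab with added domains, had 2.26, 0.642 and 0.974 CPM with BMP2 and 0.455, 0.393 and 0.569 CPM with PBS. Every BMP2 library was above every PBS library, and the BMP2 library of batch 1 was far above the rest. The log2 fold change was 1.27 (SE 0.51, adjusted p = 0.279, edgeR). It was 0.73 without both libraries of batch 1, and 0.77 without the BMP2 library of batch 1 alone in a fit without the block. Rab40c had 13.6, 16.1 and 16.9 CPM with BMP2 and 23.7, 14.4 and 14.7 CPM with PBS, with overlap, a log2 fold change of -0.14 (95% interval -0.71 to 0.43), and a change of sign without batch 1.

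**Figure D4:**
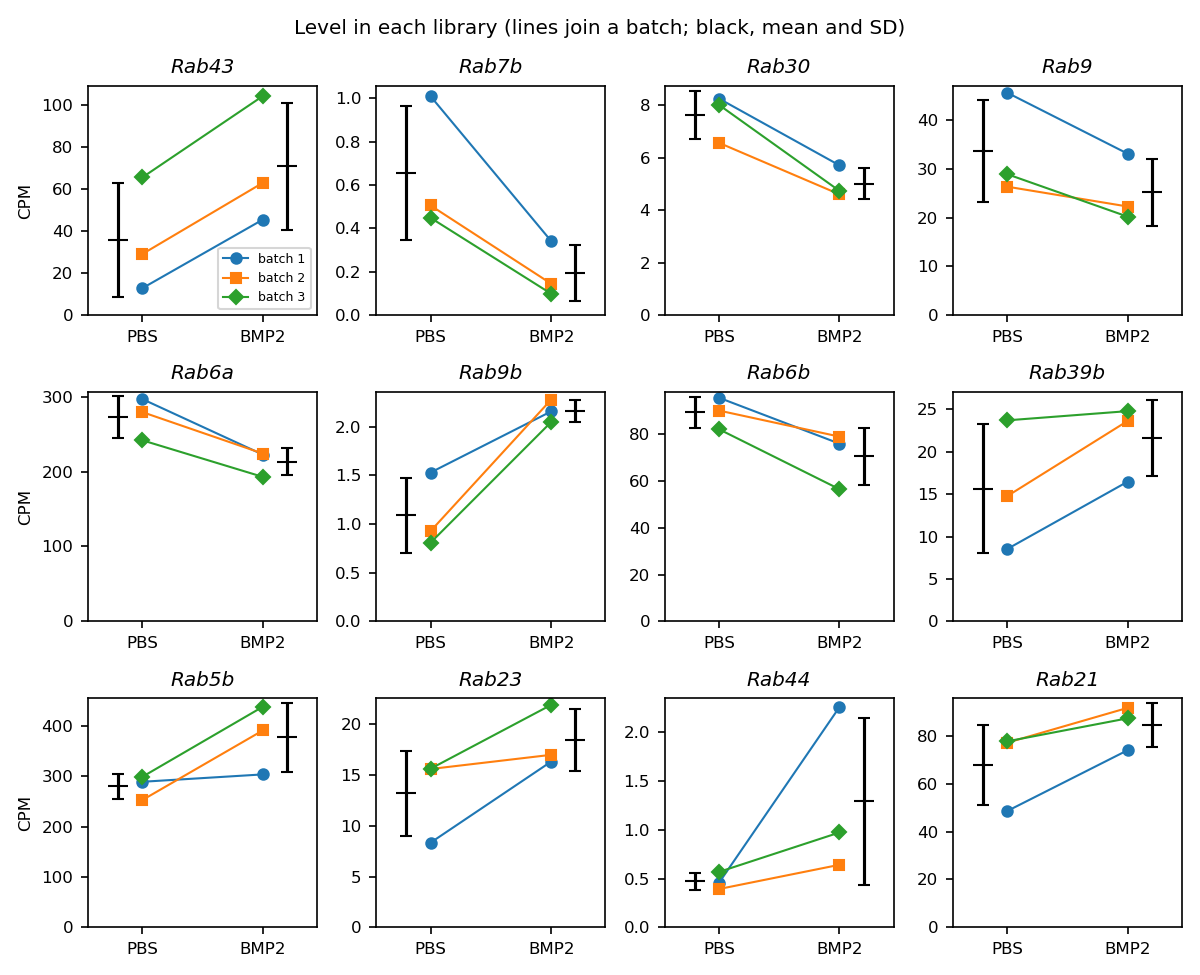
Level in CPM of the 12 tested Rab genes with the smallest unadjusted p, in each PBS and BMP2 library; lines join the libraries of a batch, and black bars give the mean and SD of the 3 libraries. No gene passed the adjusted threshold. All lines slope one way in each panel, which the choice by p in a fit with batch as a block favours. The groups overlap for Rab43, Rab9, Rab39b and Rab21.

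For comparison, the melanosomal Rab32 had 21.9, 27.8 and 33.8 CPM with BMP2 and 8.36, 13.9 and 17.2 CPM with PBS. The groups did not overlap, and Rab32 rose with a log2 fold change of 1.12 (SE 0.17, adjusted p = 0.0482, edgeR with the block), while the adjusted p was 0.614 without the block. Rab27a had 0.50 (adjusted p = 0.236, edgeR) and Rab38 0.23 (adjusted p = 0.442, edgeR). The difference between Rab32 and the other Rabs was not tested. Rab32 was above the threshold and Rab43 below it with similar estimates, 1.12 with an SE of 0.17 and 1.19 with an SE of 0.22.

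The genes that act on Rab proteins were taken from 4 lists, of which 104 of 106 genes are in the table and 96 were tested. None passed the threshold, against 0.735% of all genes, and their median log2 fold change was 0.01, with 14 at an unadjusted p under 0.05, against 17% of all genes. Of these 5 were higher and 9 lower, against 8.12% and 8.89% of all genes. All 8 genes of prenylation and GDI were tested. Rabggtb, the catalytic subunit of the enzyme that attaches prenyl groups to Rabs, had a log2 fold change of -0.43 (SE 0.15, adjusted p = 0.247, edgeR), and Rabac1, which binds prenylated Rabs, had -0.40 (SE 0.16, adjusted p = 0.288, edgeR). Of the GEFs 24 were tested. Sbf2, a pseudophosphatase with a DENN domain, had 202, 138 and 97.8 CPM with BMP2 and 505, 188 and 161 CPM with PBS, and a log2 fold change of -0.83 (SE 0.19, adjusted p = 0.130, edgeR). Dennd5a, another DENN protein, which binds Rab6, had 332, 322 and 264 CPM with BMP2 and 684, 431 and 408 CPM with PBS, and -0.70 (SE 0.16, adjusted p = 0.131, edgeR). Both were highest in the PBS library of batch 1, and only Dennd5a had groups that did not overlap.

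Of the GAPs 31 were tested. Tbc1d16, a GAP that acts on Rab4a, had 32.2, 69.4 and 44.9 CPM with BMP2 and 17.1, 30.1 and 30.7 CPM with PBS. The groups did not overlap, and the log2 fold change was 0.89 (SE 0.17, adjusted p = 0.0845, edgeR), the smallest adjusted p of the 96. Sgsm2, a GAP of Rab32 and Rab38, had 51.6, 69.2 and 85.7 CPM with BMP2 and 35.8, 48.8 and 54.6 CPM with PBS, with overlap and 0.56 (SE 0.12, adjusted p = 0.118, edgeR). Among 33 effectors tested, Bicd1, a dynein adaptor that Rab6 recruits, had 0.61 (SE 0.17, adjusted p = 0.170, edgeR), and Micall2, which binds Rab8 and Rab13, had -0.56 (SE 0.18, adjusted p = 0.218, edgeR). DESeq2's Wald test with the block called 6 of the 96 regulators, against 4.96% of all genes: Sbf2, Dennd5a, Dennd1a, Tbc1d16, Sgsm2 and Bicd1.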

How the data were processed

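The authors deposited estimated counts per gene, made with kallisto 0.44.0 on mouse build GRCm38.p6, per the submitters' processing notes. Kallisto divides reads that fit several transcripts by likelihood. No annotation release, gene-level summing or strand setting is stated in the sources used here. GENCODE M21 supplied symbols, positions and lengths for 34679 of 34981 genes, and 302 were unmatched. Columns named as controls were matched to samples titled untreated.

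Counts were rounded and tested in edgeR 4.0.16 (R 4.3.3; filterByExpr, TMM, quasi-likelihood test, treatment plus batch), with Benjamini-Hochberg adjustment over 12929 genes and a threshold of 0.05. The block follows the stated batches and the pairing in the rule for members. Libraries of a batch deviated together, with correlations of 0.58, 0.37 and 0.64. Standard errors were worked back from F, and 95% intervals use a median of 6.74 degrees of freedom, 2 of them residual. The test was checked on counts simulated with the same spread for all genes and no outlying library. That check does not cover the library that stood apart here. Sharing of 31-base words was computed over annotated transcripts. Paralogue shares are shares of summed CPM per kilobase of the longest annotated coding transcript.

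Members, role lists and regulator lists were chosen with earlier results of these data known. Genes with full values were the 12 with the smallest p, the 5 most abundant per length, the top of each role, any at 0 in every library, the melanosomal Rabs, Id1, Id2, Id3 and Smad6, and 2 regulators per list. Other Rabs given with values, the genes that overlap members and Dennd1a were added after their values were seen. Alternatives were no block, other scalings and filters, DESeq2 1.42.0, summing of near-identical genes and leaving out libraries. One marker gene is not reported here. Intervals for counts cover counting error only.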

Additional observations from a re-analysis of the deposited data

How the results depend on the processing

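In 19 alternative settings the count of Rab genes past the threshold was 0 in 14. It was 1 (Rab43) with no filter on low counts, where 500 of all 21593 genes passed. DESeq2's Wald test also gave 1 (Rab43), beside 635 of 12801 genes. That test on counts summed over genes that share 31-base words gave 1 (Rab43) as well, beside 634 of 12797 genes. All settings with such sums were added after the data were seen. Leaving out a batch or a library gave 0 to 3, the 3 being Rab43, Rab5b and Rab17 without batch 1, and the 1 being Rab43 without batch 3. The counts of all genes that passed without each batch are given at the end of this section. Without the replicate block the count of Rab genes was 0, Rab43 having 0.98. Regulators past the threshold numbered 3 of 103 with no filter, beside 500 of 21593 genes. With DESeq2 they numbered 6 of 96, beside 635 of 12801 genes. Both counts were the same after summing. With a batch or library left out they numbered 0 to 5. This range has no share of all genes beside it for each library left out and is not read as a result about the regulators. The median log2 fold change of the Rab genes was 0.18 with library totals, which moved that of all genes to 0.14, and -0.0061 to 0.11 with a batch or library left out.

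Directions were followed for 20 named genes, 12 picked for the smallest unadjusted p in the main fit and the others for their level. Other Rabs given with values are not in this count. Of the 20, 14 kept their direction in every setting run, among them all 12 picked by p. Their steadiness follows in part from that choice and from settings that re-use the same 6 libraries. The other 6, all picked by level and with estimates near 0, turned in 22 of 377 values. With library totals these were Rab5c 0.033, Rab1a 0.031, Rab10 0.067 and Rab14 0.12, and with no filter Rab14 0.013, also after summing. Leaving out a batch gave Rab5c -0.22 to 0.082, Rab1a -0.20 to 0.044, Rab10 -0.14 to 0.023, Rab40c -0.32 to 0.17 and Rab14 -0.034 to 0.047, each positive without batch 1, and Rab3a -0.19 to 0.31, negative without batch 2. In fits without the block that left out 1 library, they were Rab1a 0.022 and Rab10 0.18 without BMP2 1, Rab14 0.019 and Rab3a -0.21 without BMP2 2, Rab5c 0.11, Rab40c 0.089 and Rab14 0.091 without PBS 1, Rab10 0.087 without PBS 2, and Rab10 0.011 and Rab3a -0.042 without PBS 3. The cause was not tested.

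All genes called numbered 95, against 6 without the replicate block, 635 with DESeq2, 500 with no filter, 54 with library totals, and 531, 27 and 218 without batches 1, 2 and 3. With 3 libraries a group and 2 residual degrees of freedom, differences below 2-fold were within the interval of many genes, and genes near the floor, such as Rab7b and Rab44, have wide ones.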
